A study of Homo sapiens with 6 samples.

Results

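The genes described here encode the proteins that join one epithelial cell to the next: cadherins, catenins and nectins of adherens junctions, claudins and their partners at tight junctions, desmosomal proteins, connexins of gap junctions, and the adhesion molecule EPCAM. A list of 36 such genes was matched to the array's annotation, taking transcript clusters (the array's unit of 1 transcript locus) that name exactly 1 gene symbol, and 33 of the 36 had such a cluster, out of 18417 genes measured. CTNND1, OCLN and F11R were not analysed here. RNA came from AGS, an established human gastric carcinoma line, hybridised to HuGene-1_0-st arrays. The treated group, 3 arrays, held cells kept for 24 h with 20 µM celecoxib, an inhibitor of cyclooxygenase-2, and the control group, also 3 arrays, held cells labelled as having no treatment. All cells had grown for 48 h after seeding. Celecoxib was dissolved in DMSO, and the sources used here do not say whether controls had DMSO too. Replicates are called biological, yet the protocol mentions pooling without naming the wells, so p-values measure only the spread between these arrays, which may be technical.

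Adherens junctions hold neighbouring cells together through cadherins, whose cytoplasmic tails bind catenins and through them the actin cytoskeleton, while nectins bind across the gap on their own account. Tight junctions seal the space between cells: claudins form the strands and set which ions pass, and scaffold proteins such as ZO-1 tie the strands to actin. Desmosomes link intermediate filaments between cells, and gap junctions are channels that connect neighbouring cytoplasms. In gastric epithelium these structures keep acid and enzymes in the lumen. AGS cells are known for lacking functional E-cadherin protein, which transcript values cannot show.

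The deposited values are log2 expression on the scale of RMA, in which a difference of 1 is a 2-fold change. Array medians lay between 6.75 and 6.82. Celecoxib replicate 1 stood furthest from the others on the first principal component, at 23.9, where the other 5 arrays lay between -16.4 and 2.70. The median of 208 small nuclear and nucleolar RNA genes was 7.68 on that array, between 7.02 and 7.20 on the controls, and 7.28 and 7.27 on celecoxib replicates 2 and 3. Small RNA level was thus higher on every celecoxib array than on any control, and with 6 arrays it cannot be told apart from the treatment. The labelled epithelial type was checked on 7 cytokeratin and CEACAM markers, of which 6 lay above the median of all clusters (6.79), with medians per array from 9.48 to 9.77 in controls and 9.59 to 9.93 with celecoxib. Markers of fibroblasts (1 of 7 above that median) and endothelium (1 of 6) were mostly dim. Their medians per array ranged from 6.05 to 6.23 and from 5.59 to 5.60 in controls, and from 5.98 to 6.26 and from 5.49 to 5.66 with celecoxib. Of the leukocyte markers 2 of 5 lay above it, LYZ, at 13.65 in controls and 13.71 with celecoxib, and CD68, at 8.13 and 8.14. PTPRC, CD3E and CD14 lay below it. Medians of the leukocyte list ranged from 6.14 to 6.46 in controls and from 6.06 to 6.34 with celecoxib. None of these markers passed the test between groups. CEACAM5, an epithelial marker, had means of 7.90 in controls and 8.42 with celecoxib, higher without overlap by 1.43-fold (limma adjusted p = 0.0561), and KRT18 was lower without overlap (12.05 and 11.84, limma adjusted p = 0.333). The part of these markers in the results below was not tested.

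The comparison asked which junction genes differed in transcript level after celecoxib. None of the 33 passed an adjusted p of 0.05 in limma's moderated linear model, where 26 of 18417 genes did (0.141%; 0.076% higher and 0.0652% lower). Closest to the threshold were CLDN1, the barrier-forming claudin-1, which was 1.44-fold lower with celecoxib (adjusted p = 0.0555), and NECTIN3, an adhesion molecule of adherens junctions, which was 1.32-fold higher (adjusted p = 0.0967). At an unadjusted p under 0.05 there were 9 members (27.3%), 5 higher and 4 lower, where 11.3% of all genes met that level, 6.87% higher and 4.44% lower. The groups did not overlap for 11 members (33.3%), 5 higher and 6 lower, beside 19% of all genes (11.1% higher and 7.95% lower). The median difference of the members was -0.04, beside -0.01 for all genes. Of the 33 members 20 were lower (60.6%, beside 52.1% of all genes), and 16 were (48.5%, beside 40.5%) when arrays were centred on their medians. The split between higher and lower thus depends on the scaling, for the members as for all genes. As each value is an average over many cells, fewer cells with a transcript and less transcript per cell cannot be told apart.

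**Figure D1:**
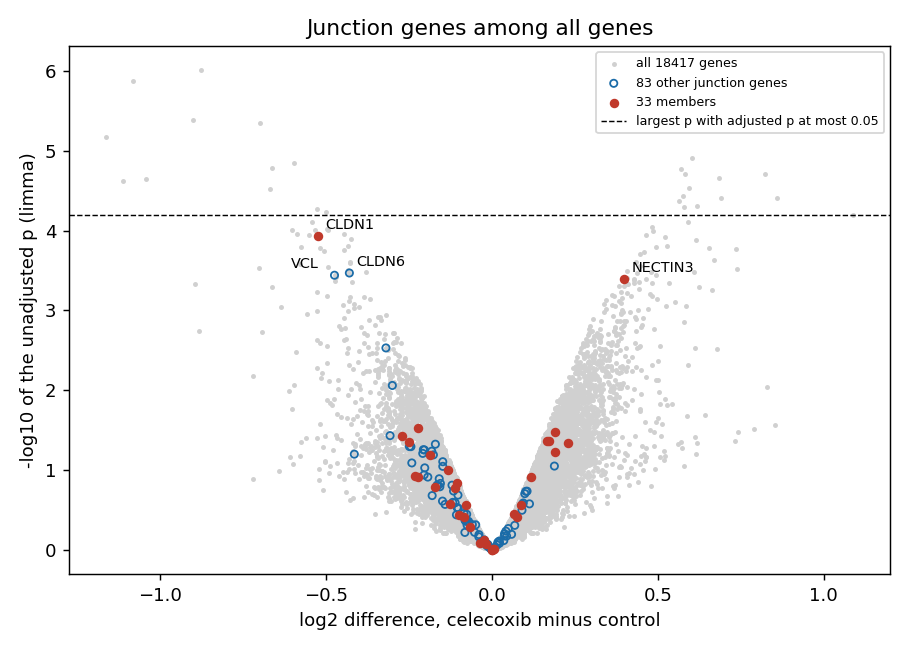
Each point is 1 gene, with the log2 difference (celecoxib minus control) on the horizontal axis and the -log10 of limma's unadjusted p on the vertical axis; grey points are all 18417 genes, red points the 33 junction genes and open blue points 83 further junction, polarity and regulator genes. CLDN1 (-0.52) lies just under the dashed line that marks the largest p still called, and NECTIN3 (0.40), CLDN6 (-0.43) and VCL (-0.48) lie below it.

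Among the proteins of tight junctions, CLDN1 had the clearest separation. Its log2 values were 10.20, 10.08 and 10.24 in the controls and 9.57, 9.68 and 9.70 with celecoxib. All 3 treated arrays lay below all 3 controls, and the gap between the groups exceeded the range within either group. The difference was -0.52 ± 0.08 (SE, n = 3 per group, adjusted p = 0.0555 in limma), with a 95% interval from -0.70 to -0.35. Leaving out 1 array at a time kept the difference between -0.57 and -0.48, with adjusted p from 0.135 to 0.362.

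NECTIN3 belongs to the nectins, immunoglobulin-like molecules that start contacts between cells and anchor to actin through afadin. Its log2 values were 8.07, 8.17 and 8.08 in the controls and 8.57, 8.51 and 8.46 with celecoxib. Every treated array lay above every control. The difference was 0.40 ± 0.07 (SE, n = 3 per group, adjusted p = 0.0967 in limma), with a 95% interval from 0.24 to 0.56.

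Promoters of both genes are shown with those of CLDN6 and VCL, which come from the wider list of junction genes described further on, because these 4 genes had the smallest p among all junction genes examined. Each sequence is the 250 bases before the annotated start in RefSeq, assembly GRCh38.p14, written 5′ to 3′ on the gene's strand. CLDN1 is at chr3:190322447-190322696 (minus strand), NECTIN3 at chr3:111071566-111071815 (plus strand), CLDN6 at chr16:3018184-3018433 (minus strand) and VCL at chr10:73997866-73998115 (plus strand). Capitals mark matches on either strand to 5 motifs.
CLDN1: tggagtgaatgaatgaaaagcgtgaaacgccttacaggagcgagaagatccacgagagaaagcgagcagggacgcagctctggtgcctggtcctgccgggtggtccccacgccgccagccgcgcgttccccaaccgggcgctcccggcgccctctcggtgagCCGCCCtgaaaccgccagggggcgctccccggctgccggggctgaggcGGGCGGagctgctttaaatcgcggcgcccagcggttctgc
NECTIN3: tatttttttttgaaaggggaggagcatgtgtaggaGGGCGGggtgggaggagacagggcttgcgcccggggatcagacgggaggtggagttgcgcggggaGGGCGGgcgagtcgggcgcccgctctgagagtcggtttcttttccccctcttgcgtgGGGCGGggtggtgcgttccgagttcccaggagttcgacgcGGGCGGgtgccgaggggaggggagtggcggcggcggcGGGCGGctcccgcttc
CLDN6: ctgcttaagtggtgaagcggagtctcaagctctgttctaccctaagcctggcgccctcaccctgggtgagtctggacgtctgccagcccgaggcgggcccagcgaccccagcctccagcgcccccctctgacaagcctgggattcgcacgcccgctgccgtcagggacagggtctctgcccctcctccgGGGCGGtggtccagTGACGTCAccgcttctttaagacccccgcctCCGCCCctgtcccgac
VCL: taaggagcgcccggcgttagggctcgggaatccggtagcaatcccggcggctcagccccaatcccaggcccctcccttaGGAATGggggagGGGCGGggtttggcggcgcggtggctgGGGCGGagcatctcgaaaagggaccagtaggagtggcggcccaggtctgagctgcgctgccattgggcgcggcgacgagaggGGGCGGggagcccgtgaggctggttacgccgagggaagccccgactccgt

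The motifs searched were CAGGTG (an E-box of Snail and ZEB repressors), GGAATG (TEAD factors), TGANTCA (AP-1), TGACGTCA (the cyclic AMP response element) and GGGCGG (the GC box of Sp1-like factors); the last 2 were added after the sequences had been read. None of the marked matches overlap one another. GC boxes made up nearly all matches, with 2 in CLDN1, 5 in NECTIN3, 2 in CLDN6 and 3 in VCL, and 42.6% of 35116 promoter windows of this length hold at least 1. CLDN6 also has 1 TGACGTCA, which 1.65% of windows hold, and VCL has 1 GGAATG, which 11.9% hold. CAGGTG (17.5% of windows) and TGANTCA (6.57%) were not found in these 4 windows. Of the 33 members 24 had an entry in the promoter table. CAGGTG was in 8 of them (33.3%, beside 20.6% of 27305 genes) and TGANTCA in 5 (20.8%, beside 8.06%). TGACGTCA was in 2 (8.33%, beside 2.03%), GGGCGG in 19 (79.2%, beside 46.2%) and GGAATG in 0 (beside 14.3%). Whether members and all genes differ in these shares was not tested. These matches are letters in a window and were not measured as binding.

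**Figure D2:**
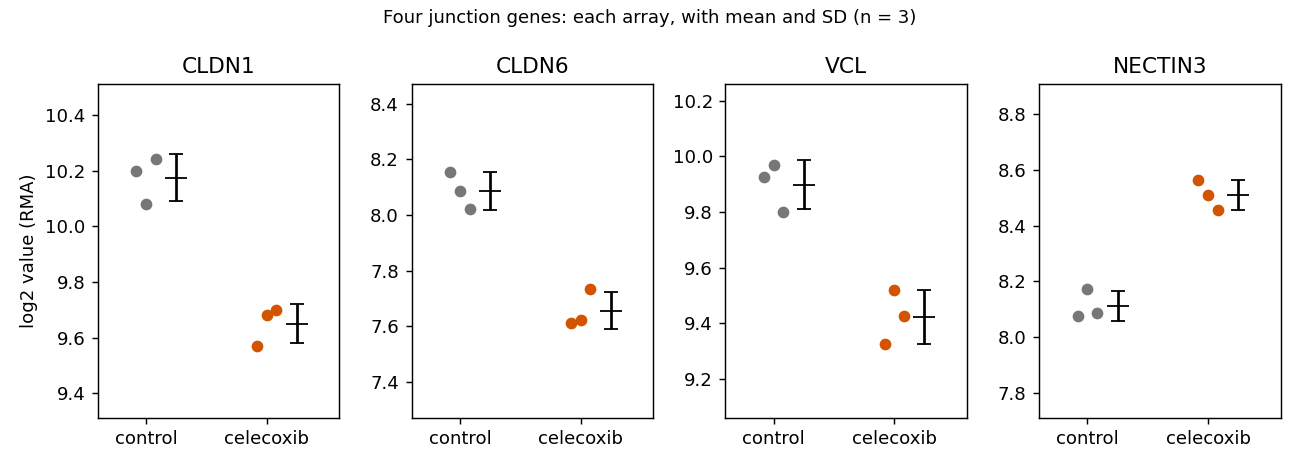
The log2 value (RMA) of CLDN1, CLDN6, VCL and NECTIN3 is plotted for each array, with a bar for the mean and SD of 3 arrays per group; every vertical axis spans the same log2 range but starts above 0. In the first 3 panels the celecoxib arrays lie below all controls, and in the panel of NECTIN3 they lie above.

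The other 8 claudins measured had smaller differences, in both directions. CLDN2, which forms a channel for cations and water, read 7.48, 7.43 and 7.51 in the controls and 7.56, 7.72 and 7.72 with celecoxib, so the groups did not overlap. Its difference was 0.19 ± 0.07 (SE, n = 3 per group, limma adjusted p = 0.408). CLDN18, a claudin of stomach and lung, read 6.53, 6.57 and 6.53 against 6.65, 6.70 and 6.79, again without overlap, a difference of 0.17 (adjusted p = 0.429 in limma). Its means of 6.55 and 6.71 lay below the median of all clusters (6.79). CLDN12, an unusual claudin that lacks the tail motif binding scaffold proteins, read 10.01, 9.92 and 10.19 against 10.41, 10.16 and 10.24, with celecoxib replicate 2 below control replicate 3. Its difference was 0.23 (adjusted p = 0.433 in limma), and it was 0.16 without celecoxib replicate 1 and 0.053 with the small RNA level as a covariate. CLDN23 read 7.53, 7.53 and 7.62 in the controls and 7.49, 7.21 and 7.43 with celecoxib, lower without overlap, with a difference of -0.19 (limma adjusted p = 0.457) that was -0.11 without celecoxib replicate 2. It had an unadjusted p of 0.0637, while those of CLDN2, CLDN12 and CLDN18 were 0.0332, 0.0456 and 0.0435.

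The remaining claudins had differences near 0 with overlapping groups. CLDN3 and CLDN4, barrier claudins that are direct neighbours on chromosome 7, stood at -0.02 (95% interval -0.20 to 0.15) and 0.09 (-0.08 to 0.26). CLDN7, a claudin of the lateral membrane and a partner of EPCAM, stood at -0.0016 (-0.19 to 0.19). CLDN15, a cation-channel claudin of the intestine, stood at -0.02 (-0.22 to 0.19). These intervals leave room for differences of about the size seen in CLDN2 and CLDN18. Of the 9 claudins CLDN1 was the 1 whose interval lay wholly below 0.

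The other membrane proteins of tight junctions measured were MARVELD2, tricellulin, which seals corners where 3 cells meet, and MARVELD3. MARVELD2 read 8.84, 8.82 and 8.69 in the controls and 8.83, 9.04 and 9.04 with celecoxib. Celecoxib replicate 1 lay within the controls and the other 2 treated arrays above them, which gave a difference of 0.19 (95% interval -0.01 to 0.39). The gene has 2 clusters, whose values were identical. MARVELD3 had a difference of -0.04 (-0.35 to 0.28), with celecoxib replicate 1 at 7.41 and replicates 2 and 3 at 7.86 and 7.84.

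Of the scaffolds under the tight junction membrane, CGN, cingulin, which links the junction to actin and myosin, read 8.26, 8.35 and 8.08 in the controls and 7.78, 8.13 and 7.96 with celecoxib. Replicate 2 of celecoxib lay above control replicate 3, so the groups overlapped. The difference was -0.27 ± 0.11 (SE, n = 3 per group, adjusted p = 0.413 in limma). It was -0.18 without celecoxib replicate 1 and -0.057 with the small RNA level as a covariate. TJP1, the scaffold ZO-1, read 11.16, 11.16 and 11.09 against 10.93, 11.10 and 11.03, a difference of -0.11 (95% interval -0.28 to 0.06) that was -0.067 without celecoxib replicate 1 and -0.018 with the small RNA level as a covariate. TJP3, ZO-3, had a difference of 0.00064 (-0.26 to 0.27), and its treated values spread from 8.99 to 9.38.

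**Figure D3:**
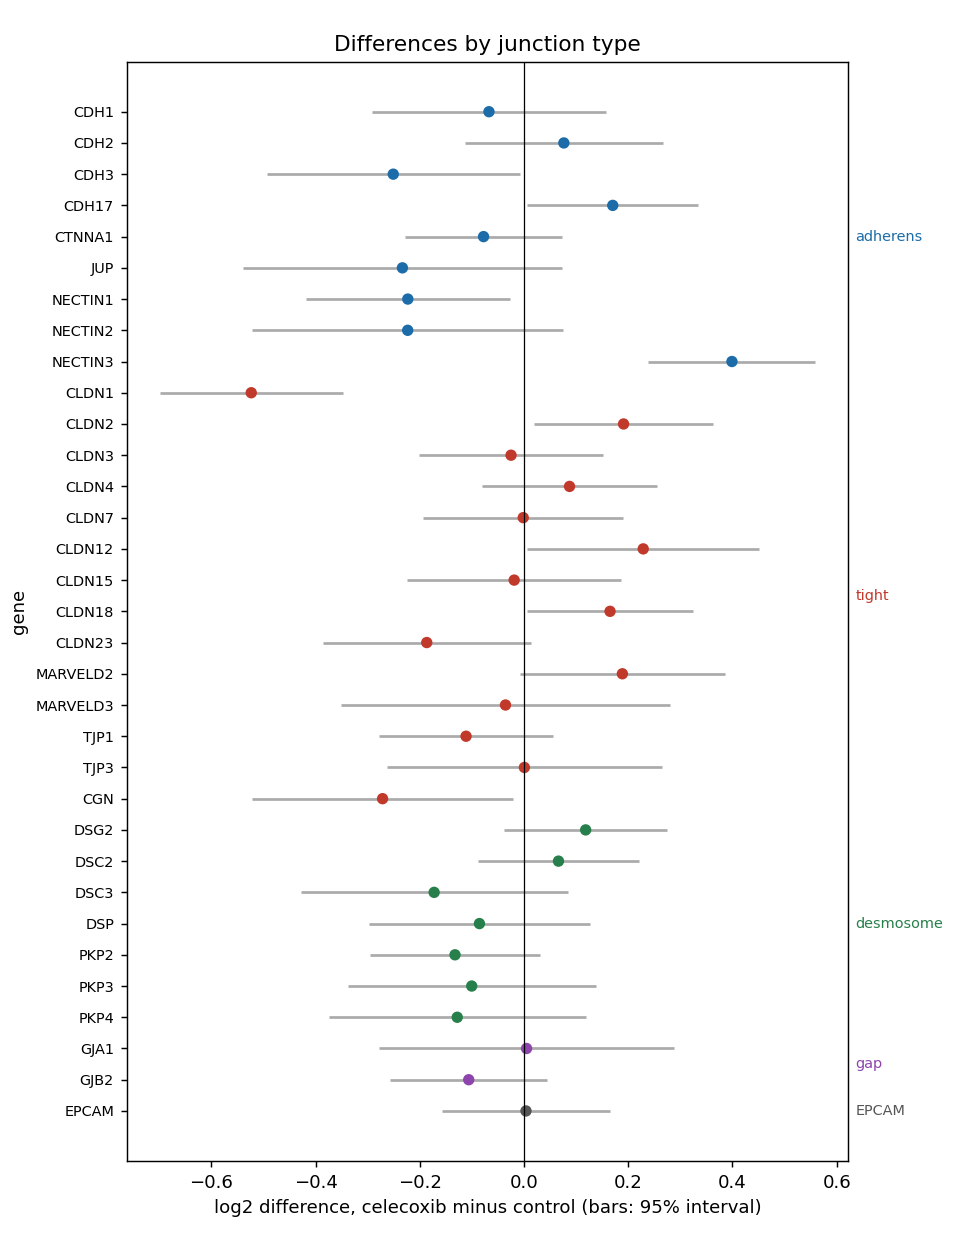
Log2 differences (celecoxib minus control) of the 33 members are drawn as points with 95% intervals from limma, unadjusted for the number of genes, coloured by junction type. CLDN1 (-0.52) and NECTIN3 (0.40) lie at the ends of the range, and most other intervals include 0.

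Within adherens junctions, E- and N-cadherin had intervals on both sides of 0. CDH1, E-cadherin, read 8.01, 7.98 and 7.90 in the controls and 7.69, 8.01 and 7.98 with celecoxib. Celecoxib replicate 1 was the lowest of the 6 arrays, replicate 3 lay among the controls and replicate 2 just above the highest control. The difference was -0.07 (95% interval -0.29 to 0.16), and it was 0.03 without celecoxib replicate 1. CDH2, N-cadherin, the cadherin of mesenchymal and neural cells, read 5.57, 5.59 and 5.75 against 5.61, 5.80 and 5.73, a difference of 0.08 (-0.11 to 0.27). CDH2 was dim, below the median of all clusters (6.79).

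The other 2 cadherins went opposite ways in their means. CDH3, P-cadherin, whose gene lies directly beside CDH1 on chromosome 16, read 5.75, 5.97 and 6.16 in the controls and 5.71, 5.64 and 5.77 with celecoxib, with celecoxib replicate 3 just above control replicate 1. Its difference was -0.25 ± 0.11 (SE, n = 3 per group, adjusted p = 0.431 in limma), and it was -0.15 without control replicate 3 and -0.091 with array weights. CDH3 was dim, with means of 5.96 and 5.71, below the median of all clusters (6.79). CDH17, the liver-intestine cadherin, read 10.64, 10.59 and 10.67 in the controls and 10.72, 10.83 and 10.86 with celecoxib, higher without overlap. Its difference was 0.17 ± 0.07 (limma adjusted p = 0.429, n = 3 per group).

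The 3 nectins differed in sign. NECTIN1 read 6.93, 7.11 and 6.91 in the controls and 6.69, 6.86 and 6.73 with celecoxib, lower without overlap, in the opposite direction to NECTIN3. Its difference was -0.22 ± 0.09 (SE, n = 3 per group, limma adjusted p = 0.394). NECTIN2 had the same mean difference, -0.22 (95% interval -0.52 to 0.07), but a wide spread, with 9.22, 9.40 and 9.02 in the controls and 8.76, 9.17 and 9.04 with celecoxib. Without celecoxib replicate 1 that value was -0.11, and without control replicate 2 it was -0.13.

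Both catenins measured had negative differences. CTNNA1, alpha-catenin, the link from cadherins to actin, read 10.32, 10.25 and 10.32 in the controls and 10.21, 10.20 and 10.25 with celecoxib. The groups touched without overlapping, and the difference was -0.08 (95% interval -0.23 to 0.07). JUP, plakoglobin, which serves both adherens junctions and desmosomes, read 10.43, 10.56 and 10.23 against 9.92, 10.40 and 10.20, with a difference of -0.23 (-0.54 to 0.07) and, without celecoxib replicate 1, -0.11.

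No desmosomal gene of the 7 measured had an unadjusted p under 0.05. DSG2, the desmoglein of simple epithelia, read 10.18, 10.20 and 10.13 in the controls and 10.23, 10.29 and 10.34 with celecoxib, higher without overlap, a difference of 0.12 (95% interval -0.04 to 0.27). PKP2, plakophilin-2 of the desmosomal plaque, read 11.30, 11.32 and 11.26 against 11.07, 11.22 and 11.19, lower without overlap, a difference of -0.13 (-0.30 to 0.03) and, without celecoxib replicate 1, -0.088. The desmocollins DSC2 and DSC3 are neighbouring genes on chromosome 18 and stood at 0.07 (-0.09 to 0.22) and -0.17 (-0.43 to 0.08). DSC3 was dim, with means of 4.33 and 4.16, and its difference was -0.074 without control replicate 3. The plaque proteins DSP (desmoplakin), PKP3 and PKP4 stood at -0.09, -0.10 and -0.13, and their groups overlapped. Without celecoxib replicate 1 these values were -0.017, -0.024 and -0.013.

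Connexins and EPCAM closed the list. GJA1, connexin 43, read 5.23, 5.52 and 5.53 in the controls and 5.20, 5.52 and 5.57 with celecoxib, a difference of 0.0048 (95% interval -0.28 to 0.29). GJA1 was dim, with means of 5.42 and 5.43. GJB2, connexin 26, read 7.99, 7.97 and 7.98 against 7.82, 7.91 and 7.90, lower without overlap, a difference of -0.11 (-0.26 to 0.04). EPCAM, an epithelial surface molecule used as a carcinoma marker, read 11.96, 11.87 and 11.81 against 11.88, 11.91 and 11.86. Its difference was 0.0037, with a 95% interval from -0.16 to 0.16, and a second cluster of the gene gave -0.0092.

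**Figure D4:**
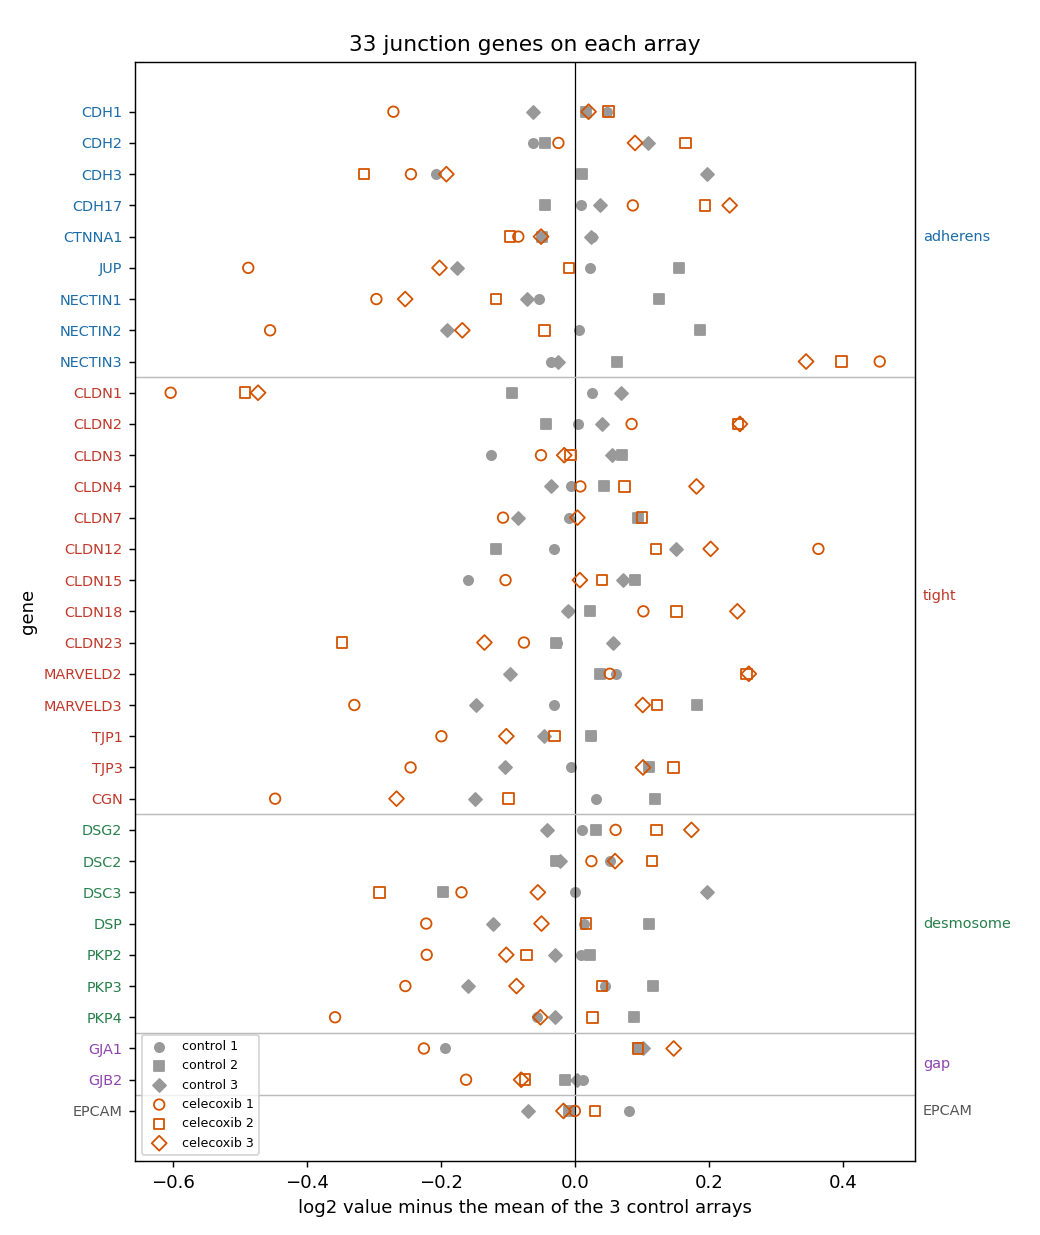
Rows are the 33 members, grouped by junction type. The log2 value on each array is plotted after subtracting the mean of the 3 controls. Grey filled symbols are controls and open orange symbols celecoxib. The symbol shape gives the replicate number, which the main fit did not use to pair arrays. The open circles of celecoxib replicate 1 lie furthest left for 16 of the 33 genes, among them JUP, NECTIN2, CGN and PKP4.

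Many members had their lowest value on the same array. Celecoxib replicate 1 held the lowest value of the 6 arrays for 16 of the 33 members (48.5%), beside 22.5% of all genes. Divided after the values were seen into 9 proteins of the cytoplasmic side (catenins, ZO and cingulin scaffolds, desmoplakin and plakophilins) and 24 that span the membrane, it was lowest for 8 of the former (88.9%) and 8 of the latter (33.3%). Control replicate 2 was the highest array for 7 of the 9 cytoplasmic members (77.8%), beside 36.4% of all members and 18.2% of all genes. The 9 had a median difference of -0.11 with 8 lower, and -0.07 with 8 lower without celecoxib replicate 1; with arrays centred on their medians 8 were lower, with cyclic loess 9, and with the small RNA level as a covariate 4. The 24 membrane proteins had 12 higher and 12 lower. With centred arrays, and also without celecoxib replicate 1, 16 were higher and 8 lower, and with the covariate 18 were higher and 6 lower. Of all genes 52.1% were lower as reported, 40.5% with centred arrays, 51.9% without celecoxib replicate 1 and 52.5% with the covariate. Small RNA level was highest on the same array and separated the groups, so values with this covariate cannot be told apart from an effect of the treatment. The part of small RNA level in these values was not tested.

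**Figure D5:**
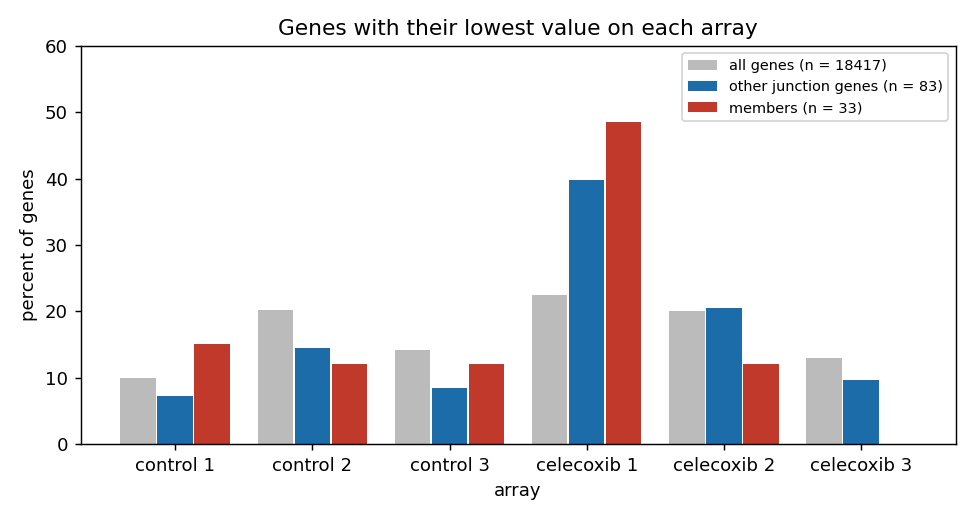
Bars give the percent of genes whose lowest log2 value of 6 fell on each array, for all 18417 genes (grey), 83 further junction genes (blue) and the 33 members (red). Celecoxib replicate 1 holds 48.5% of the members' lowest values against 22.5% for all genes, and celecoxib replicate 3 holds none of them.

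Further genes of the same structures were read from the same fit. Of 91 listed, 83 were measured and 0 passed the adjusted threshold in limma, with 6 at an unadjusted p under 0.05 (7.23%), all of them lower, where 11.3% of all genes met that level, 4.44% lower. In all 61 of the 83 were lower (73.5%, beside 52.1% of all genes), and 49 were (59.0%) when arrays were centred on their medians, which put 40.5% of all genes lower. Celecoxib replicate 1 was the lowest array for 39.8% of them. Without it 58 of the 83 were lower. This list too was chosen with earlier results of these data known.

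VCL, vinculin, which reinforces adherens junctions and focal contacts under tension, read 9.93, 9.97 and 9.80 in the controls and 9.33, 9.52 and 9.43 with celecoxib. The groups lay well apart, with a difference of -0.48 ± 0.08 (SE, n = 3 per group, limma adjusted p = 0.0937). Of the 13 adherens genes measured on this list 11 were lower. PVR, a nectin-like binding partner of NECTIN3, read 10.05, 10.17 and 9.99 against 9.87, 9.93 and 9.90, lower without overlap by a mean difference of -0.17, while NECTIN3 was higher. CTNNB1, beta-catenin, added to these after its values were seen, stood at -0.04.

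CLDN6, a claudin of embryonic epithelia, read 8.16, 8.08 and 8.02 in the controls and 7.61, 7.62 and 7.73 with celecoxib. It was lower on every treated array than on any control, as CLDN1 was, with a difference of -0.43 ± 0.07 (SE, n = 3 per group, limma adjusted p = 0.0907). Of the 20 further tight junction genes 16 were lower and 4 higher. Their differences ranged from -0.43 to 0.10.

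PPL, periplakin, which joins desmosomes to keratin filaments, read 7.99, 8.13 and 7.91 against 7.59, 7.75 and 7.79, a difference of -0.30 (limma adjusted p = 0.306) without overlap. It was 1 of 8 further desmosomal genes, 5 of them lower. GJA5, connexin 40, a dim gene here, read 5.10, 5.00 and 5.10 against 4.76, 4.64 and 4.83, a difference of -0.32 (limma adjusted p = 0.229). It was 1 of 9 further gap junction genes, 5 of them lower.

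Polarity complexes place the junctions along the side of the cell, and 0 of their 16 genes had an unadjusted p under 0.05, with 11 lower and a range from -0.20 to 0.19. Among 17 transcription and splicing regulators of junction genes 13 were lower, and EHF, an epithelial ETS factor, was the 1 with an unadjusted p under 0.05. It read 6.84, 6.87 and 6.97 in the controls and 6.87, 6.52 and 6.37 with celecoxib, where replicate 1 overlapped the controls and replicates 2 and 3 lay below them, a difference of -0.31 (limma adjusted p = 0.413). Of the Snail, ZEB, TWIST and E-protein factors on the list, regulators of cadherin genes that were added after their values were seen, SNAI1 stood at -0.08, SNAI2 at -0.24, ZEB1 at -0.07, ZEB2 at -0.10, TWIST1 at -0.0038, TWIST2 at 0.04, TCF3 at -0.14 and TCF4 at -0.21. SNAI2 and TCF4 were lower without overlap, as were 7.95% of all genes, and the groups of the other 6 overlapped. SNAI2 and TCF4 lay below the median of all clusters (6.79), with control means of 5.35 and 5.84. Other regulators on the list were also added after their values were seen. ESRP2 stood at -0.42 and read 8.52, 8.76 and 8.27 in the controls and 7.68, 8.42 and 8.20 with celecoxib. Celecoxib replicate 1 was the lowest of these arrays, replicate 2 lay within the controls and replicate 3 just below them. The SE of the ESRP2 difference was 0.19 (limma adjusted p = 0.456). OVOL2 stood at -0.24 (lower without overlap), GRHL2 at -0.16, KLF4 at -0.15, GRHL1 at -0.08, ELF3 at 0.018, OVOL1 at 0.015 and KLF5 at 0.00038.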

How the data were processed

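The authors deposited log2 values made with RMA in Affymetrix Expression Console 1.1, per the submitters' processing notes; the sources used here give neither probe-level settings nor scan dates, and batches could not be tested. Of 33297 clusters, 19460 had 1 gene symbol, 1754 several and 12083 none here; for a gene with several clusters the one with the highest mean stood, which left 18417 genes. Identifiers of 19429 clusters matched a RefSeq table of GRCh38.p14. Groups came from the labels. Differences (celecoxib minus control), standard errors and two-sided p-values came from the moderated linear model of limma 3.58.1 (R 4.3.3), with Benjamini-Hochberg adjustment over all genes. The procedure was tested on simulated data with independent noise and no deviation shared across an array. That simulation cannot show how the procedure does with an outlying array. No filter on signal was applied. Members and lists were chosen with earlier results of these data known. Named with each array's values were members with an unadjusted p under 0.05 or groups without overlap, and CDH1, CDH2, EPCAM, TJP1 and GJA1; JUP, NECTIN2 and MARVELD2 were given likewise after their values were seen, and others are named by difference or range. From the wider list those with an unadjusted p under 0.05 were named, at most 4 per group. CTNNB1 and the other regulators were added after their values were seen. Alternatives were the mean of clusters, 2 signal filters, 2 normalizations, a trended robust prior, array weights, a replicate block and leaving out each array; small RNA level as a covariate and all clusters tested together were chosen after seeing the data. The number of arrays limits the precision. Figures used matplotlib 3.10.9.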

Additional observations from a re-analysis of the deposited data

How the results depend on the processing

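Calls among junction genes depended on the setting. CLDN1 and NECTIN3 were called among genes above the median signal (2 of 28 members tested) and with array weights (2 of 33). CLDN1 alone was called without the dimmest 20% (1 of 31), with cyclic loess (1 of 33) and with the trended robust prior (1 of 33). Each of these settings also called more genes over the whole array, as given below. Under these settings the adjusted p of CLDN1 was 0.0239, 0.0102, 0.0291, 0.0446 and 0.0251, and over all 16 alternatives it ranged from 0.0102 to 0.362 with differences from -0.57 to -0.48. NECTIN3 kept between 0.37 and 0.44, with adjusted p from 0.0197 to 0.485. Of the further genes CLDN6 and VCL were called above the median signal (2 of 52 tested) and with array weights (2 of 83). VCL alone was called with the trended robust prior (1 of 83). Leaving out any 1 array gave 0 calls in both lists, with 2 to 7 members at an unadjusted p under 0.05.

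Calls over all genes numbered 76 of 10857 above the median signal and 59 of 14733 without the dimmest 20%, against 26 of 18417 in the main fit. Of the same 18417 genes, 42 were called with cyclic loess, 69 with the trended robust prior and 177 with array weights. The count was 1 with small RNA level as a covariate and 0 with all clusters tested together (limma, 2551 at an unadjusted p under 0.05). It was 0 to 5 when 1 array was left out (1293 to 2353 at that level). The replicate block gave 0 calls over all genes (smallest adjusted p 0.0692, limma, with 2448 genes at an unadjusted p under 0.05). Arrays of 1 number did not pair throughout: deviations from the group means correlated at -0.017, 0.494 and 0.012 for numbers 1, 2 and 3. Control replicate 2 was matched best by celecoxib replicate 2, and control replicates 1 and 3 by a celecoxib array of another number. These correlations cannot show whether arrays of 1 number were handled together.

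As no junction gene was called in the main fit, all differences that changed sign belonged to genes that were not called. With small RNA level as a covariate these were CDH1 at 0.13, JUP at 0.066, NECTIN2 at 0.066, CLDN3 at 0.014, CLDN7 at 0.13, CLDN15 at 0.078, MARVELD3 at 0.31, DSP at 0.086, PKP3 at 0.092 and PKP4 at 0.11. With arrays centred on their medians they were CLDN3 at 0.012, CLDN7 at 0.035, CLDN15 at 0.018 and MARVELD3 at 0.0011, with array weights CLDN3 at 0.068, CLDN7 at 0.018, CLDN15 at 0.11, MARVELD3 at 0.053 and EPCAM at -0.057, with cyclic loess TJP3 at -0.034 and EPCAM at -0.032, and with the mean of clusters EPCAM at -0.0027. Leaving out 1 array gave ranges of -0.13 to 0.035 for CDH1, -0.088 to 0.010 for CLDN3, -0.052 to 0.052 for CLDN7, -0.099 to 0.026 for CLDN15, -0.11 to 0.11 for MARVELD3, -0.072 to 0.12 for TJP3, -0.093 to 0.12 for GJA1 and -0.032 to 0.044 for EPCAM. As small RNA level separates the groups, sign changes with that covariate cannot be told apart from an effect of the treatment. The cause was not tested.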
